A study of Mus musculus with 6 samples.

Results

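The genes described here are 10 genes of scar-associated, lipid-handling macrophages: Spp1, Apoe, Lpl, Lgals3, Trem2, Cd36, Gpnmb, Cd9, Itgax and Fabp5. They were chosen by name, and all 10 were found among the 23394 genes read in the study and passed its filter on low values. Each gene was read from 1 transcript, that of highest mean level. The study compared F4/80-positive liver cells of knockout (KO) mice with those of wild-type (WT) mice, with 3 libraries of each genotype. All mice were C57BL/6 males, 3 months old, on normal chow, and all had received carbon tetrachloride (CCl4) into the peritoneum, so both groups carried the same toxic injury and no uninjured liver was included. F4/80 is a surface antigen of mouse macrophages, and the cells were taken from digested livers on magnetic columns. The labels name neither the deleted gene, nor a promoter or Cre that confines the deletion to a cell type, nor the number of CCl4 doses, so the KO label could not be checked by the level of its target. They also do not say whether each library came from 1 animal or from several, and p-values here measure the spread between these samples.

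Macrophages that gather along fibrous scars in injured liver share a program of lipid uptake, lysosomal digestion and matrix interaction. Trem2 is a surface receptor that binds lipids and lipoproteins and signals through the adaptor Tyrobp (DAP12). Cd36 takes up fatty acids and oxidised lipoproteins, Lpl releases fatty acids from triglyceride-rich lipoproteins, Fabp5 carries fatty acids inside the cell, and Apoe carries lipid out of it. Spp1 (osteopontin) and Lgals3 (galectin-3) are secreted proteins that engage integrins and glycans, Gpnmb is a glycoprotein of lysosomes and the cell surface, Cd9 is a tetraspanin, and Itgax is the integrin chain CD11c. None of these genes is made by macrophages alone: cholangiocytes and activated stellate cells make osteopontin, hepatocytes make apolipoprotein E, endothelium carries CD36, and dendritic cells carry CD11c.

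With 1 transcript per gene the KO libraries held 10790842 to 19163317 reads and the WT libraries 15027644 to 22157238, and each of the 10 genes had at least 2957 reads over the 3 KO libraries and 3317 over the 3 WT libraries, so the number of libraries, more than reads, limited the precision. Values are normalised counts, which are reads divided by 1 factor per library. Adgre1, which encodes F4/80, stood at 5254 ± 1233 in KO and 6208 ± 1613 in WT libraries (SD, n = 3 each), and all 15 genes of a pan-macrophage list were read in both groups. The summed level of that list was 83659 to 96484 in KO libraries and 79566 to 140746 in WT libraries. The cells were not pure: the summed hepatocyte list was at 134687 to 226786 in KO libraries, against 29204 to 84367 in WT libraries, and the summed endothelial list at 79790 to 163707 in KO libraries, against 37760 to 71949 in WT libraries. In such bulk samples, fewer cells of a type and less RNA per cell cannot be told apart.

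Spp1 was the only one of the 10 genes that passed the test, and it rose in KO. Osteopontin RNA stood at 13931, 14332 and 28598 normalised counts in KO replicates 1, 2 and 3, against 2374, 7901 and 2686 in WT replicates 1, 2 and 3. The groups did not overlap, and the lowest KO library was above the highest WT library. The means were 18954 ± 8355 in KO and 4320 ± 3105 in WT libraries (SD, n = 3 each). The log2 change was 2.27 (SE 0.46, 95% interval 1.24 to 3.31, limma adjusted p = 0.0433), a 4.84-fold higher level. KO replicate 3 and WT replicate 2 held the highest levels of their groups. Spp1 (ENSMUSG00000029304) lies on the plus strand of chromosome 5 at 104435118 to 104441050 in GRCm38. All 7 of its annotated transcripts were read, and the ratio of the KO to the WT mean lay between 4.39 and 4.53 for each of them. Several of these transcripts had the same value in KO replicate 1, 13931, and nearly the same values in the other libraries. Their ratios are therefore not independent and are not further support. The gene model Gm42793 overlaps 18.8% of its exon bases on the same strand and stood at 53.6 to 162 normalised counts in KO and 18.0 to 68.3 in WT libraries.

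The Spp1 call was sensitive to single libraries and to the test. It was lost without KO replicate 2, KO replicate 3, WT replicate 1 or WT replicate 3, with limma adjusted p of 0.0978, 0.154, 0.148 and 0.0938, and it was kept without KO replicate 1 or WT replicate 2, at 0.0359 and 0.0348. edgeR's quasi-likelihood test on the recovered reads gave an adjusted p of 0.0737 and so called none of the 10 genes, where it called 1.81% of all genes. DESeq2 gave 0.000328 and called Spp1 alone of the 10, where it called 9.02%, while the log2 change stayed between 1.94 and 2.82 over 16 alternatives.

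**Figure D1:**
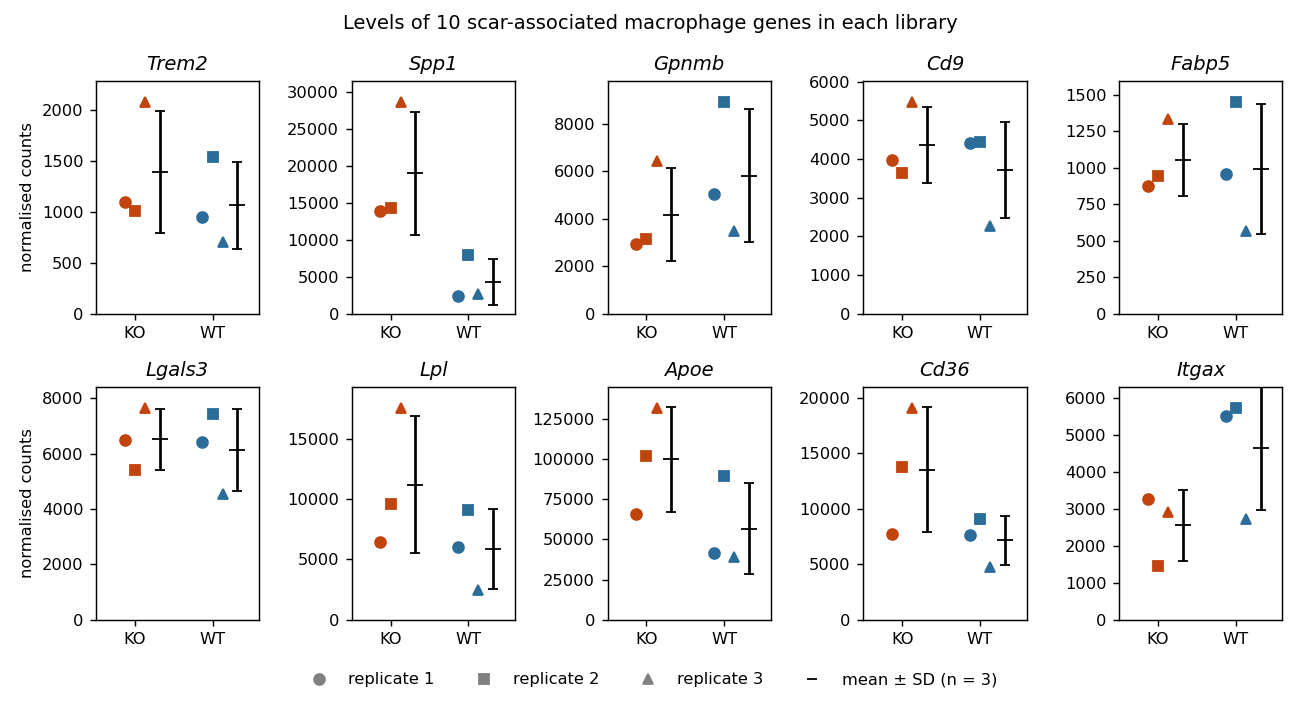
Normalised counts of the 10 genes (vertical axes, linear, starting at 0) in KO and WT libraries, with 1 symbol per replicate and the mean ± SD of 3 libraries as bars. Spp1 is the only panel in which the groups do not overlap, at 13931 to 28598 in KO and 2374 to 7901 in WT libraries.

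Apoe, Lpl and Lgals3 are the other secreted members. Apoe was at 65808, 101598 and 131332 normalised counts in KO replicates 1, 2 and 3, against 41408, 89207 and 38935 in WT replicates 1, 2 and 3. KO replicate 1 lay below WT replicate 2, so the groups overlapped, and the log2 change of 0.87 (95% interval -0.27 to 2.01, limma adjusted p = 0.420) did not pass. Lpl was at 6479, 9627 and 17531 in KO libraries, against 6056, 9138 and 2461 in WT libraries. It had a log2 change of 1.0 (95% interval -0.10 to 2.10, limma adjusted p = 0.330), and KO replicate 3 alone was far above the WT libraries. Lgals3, at 5422 to 7635 in KO and 4536 to 7429 in WT libraries, had a log2 change of 0.10 with an interval of -0.44 to 0.65, which leaves room for changes of up to 1.56-fold upward. For Apoe the interval reaches a 4.03-fold and for Lpl a 4.30-fold higher level, so missing the threshold does not show that these genes were alike in the genotypes.

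Among the surface receptors, Cd36 and Itgax had log2 changes of similar size in opposite directions, and neither passed. Cd36 was at 7777, 13771 and 19069 normalised counts in KO replicates 1, 2 and 3, against 7627, 9090 and 4745 in WT replicates 1, 2 and 3 (log2 change 0.88, 95% interval 0.06 to 1.69, limma adjusted p = 0.244). KO replicates 2 and 3 were above every WT library, and KO replicate 1 was within the WT range. Itgax was at 3279, 1471 and 2916 in KO libraries, against 5528, 5730 and 2733 in WT libraries (log2 change -0.87, 95% interval -1.69 to -0.06, limma adjusted p = 0.247). WT replicate 3 sat inside the KO range and the other WT libraries above it. Trem2, the receptor that gives these cells one of their usual names, was at 1094, 1008 and 2080 in KO libraries, against 948, 1541 and 704 in WT libraries (log2 change 0.39, 95% interval -0.38 to 1.15, limma adjusted p = 0.616). Gpnmb was at 2935, 3161 and 6427 in KO libraries, against 5043, 8918 and 3476 in WT libraries (log2 change -0.46, 95% interval -1.33 to 0.41, limma adjusted p = 0.595). Cd9, at 3638 to 5466 in KO and 2276 to 4437 in WT libraries, had a log2 change of 0.28, and Fabp5, at 878 to 1332 in KO and 564 to 1449 in WT libraries, one of 0.16. Their intervals were -0.37 to 0.92 and -0.56 to 0.89.

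In all, 1 of the 10 genes passed the test, higher in KO, where 2.44% of all 15619 tested genes passed, 2.09% as higher and 0.352% as lower. 3 of the 10 genes, Spp1, Cd36 and Itgax, had an unadjusted p under 0.05, where 18.0% of all genes did. The log2 change was above 0 for 8 genes and below 0 for Gpnmb and Itgax, with a median of 0.33 over the 10, and 54.2% of all genes were above 0 with a median of 0.05. For Cd9, Fabp5 and Lgals3 the sign itself depended on 1 library: without WT replicate 3 their log2 changes were -0.04, -0.19 and -0.10, and without KO replicate 3 those of Fabp5 and Lgals3 were both -0.02.

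**Figure D2:**
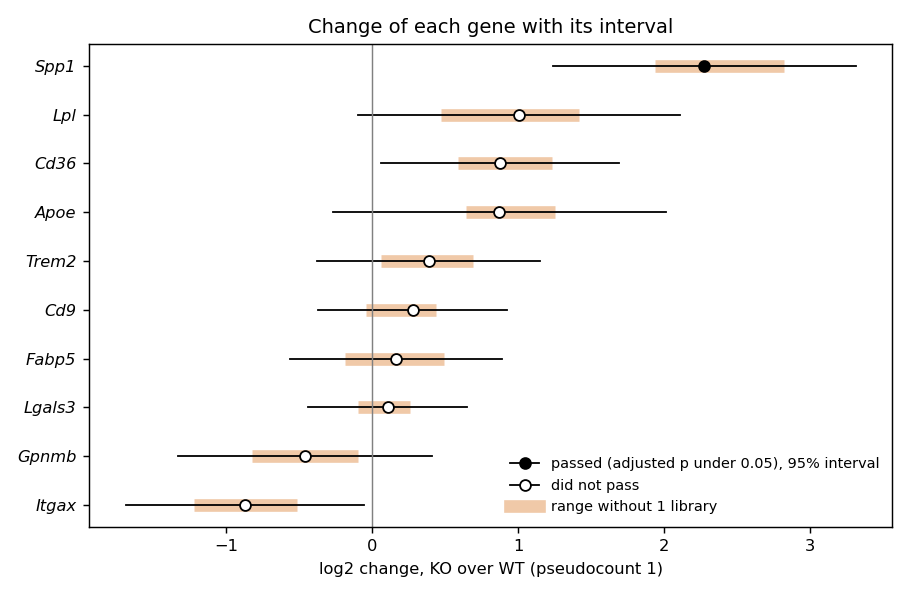
Log2 change of each gene, KO over WT, on the scale of log2(value + 1) (horizontal axis), with limma's 95% interval as a line and the range of the 6 fits that each leave out 1 library as a band. Spp1, at 2.27, is the only filled point, and the intervals of Cd36 and Itgax also exclude 0 before adjustment.

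Compared per kilobase of the highest protein-coding transcript, Apoe was the highest of the 10 genes in all 6 libraries, at 70724 ± 23301 normalised counts per kilobase in KO and 40140 ± 20126 in WT libraries (SD, n = 3 each). Spp1 was second in all 3 KO libraries, at 12577 ± 5544, and stood at 2867 ± 2061 in WT libraries, where its place was 5, 2 and 4 in replicates 1, 2 and 3. By their KO means Lgals3 (4589 ± 780 in KO, 4317 ± 1034 in WT), Cd36 (4489 ± 1873 in KO, 2372 ± 733 in WT) and Cd9 (3551 ± 792 in KO, 3018 ± 1009 in WT) came next, while in WT the means of Lgals3 and Cd9 were above that of Spp1. Lgals3 was above Cd9 in all 3 KO libraries, and Cd36 differed from both by less than its own spread in KO. Lpl stood at 2725 ± 1384 in KO and 1430 ± 812 in WT libraries. Trem2, Gpnmb, Fabp5 and Itgax had means between 632 and 1251 normalised counts per kilobase in KO and between 918 and 1570 in WT libraries. The kept transcripts of Trem2 and Fabp5 are annotated as retained introns, and their protein-coding transcripts held 96.0% and 96.1% of the kept value. Per kilobase of these longer kept transcripts Trem2 stood at 291 in KO and 223 in WT libraries and Fabp5 at 325 in KO and 306 in WT libraries, below the other 8 genes.

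The highest library, and in WT also the lowest, was the same for most of the 10 genes. WT replicate 2 was the highest WT library for 10 of the 10 genes, where it was the highest for 30.7% of all tested genes. WT replicate 3 was the lowest WT library for 9 of them, all but Spp1, against 36.2% of all genes. In KO, replicate 3 was the highest for 9 of 10 genes, all but Itgax, against 29.6% of all genes. The lowest KO library was replicate 1 for 6 genes and replicate 2 for 4, where it was so for 34.6% and 32.8% of all genes, so KO replicates 1 and 2 had no shared order. The mean log2 level of the pan-macrophage list was also highest in KO replicate 3 and WT replicate 2 and lowest of WT in replicate 3: relative to the mean of the 6 libraries it was at -0.23, -0.14 and 0.06 in KO replicates 1, 2 and 3, and at 0.22, 0.55 and -0.46 in WT replicates 1, 2 and 3. The libraries also differed in mitochondrially encoded RNA, which took 16.2% to 20.0% of the reads in KO and 6.19% to 27.5% in WT libraries, with the extremes in WT replicates 3 and 2. The part of mitochondrial RNA in these levels was not tested.

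**Figure D3:**
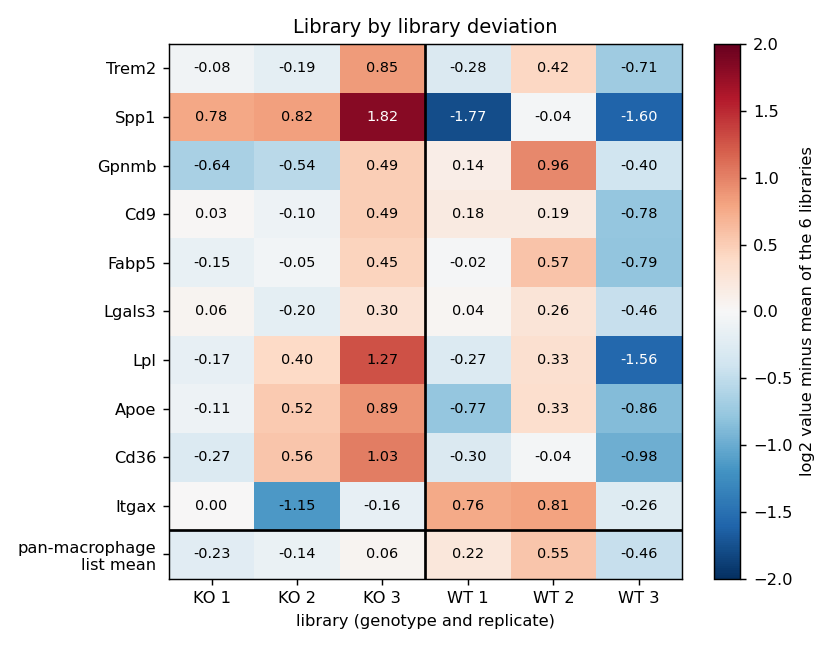
Log2 value of each gene minus its mean over the 6 libraries, by library (columns, KO left of WT), with the mean of the pan-macrophage list in the bottom row. WT replicate 2 is the highest WT column for all 10 genes and WT replicate 3 the lowest for all but Spp1.

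Because the level of the macrophage list differed between libraries, the genes were also set against it. Each library was divided by its mean level of the 15 pan-macrophage genes, so that values are relative to those genes. They are not levels within macrophages. RNA of other cells stays in them, and the summed hepatocyte and endothelial lists were higher in KO libraries. The part of that RNA in the scaled values was not tested. On this scale the KO and WT libraries did not overlap for 7 of the 10 genes, Spp1, Apoe, Lpl, Cd36, Trem2, Cd9 and Fabp5, all higher in KO, where the groups did not overlap for 16.7% of all genes. Scaling made WT replicate 3 the highest WT library for 82.2% of all genes and WT replicate 2 the lowest for 72.3%. Most of the 10 genes followed the order of the list in WT before scaling, so the share of all genes is not a like baseline for them. On the deposited scale 1 of the 10 genes did not overlap, where 22.9% of all genes did not. Cd36 was at 9128, 15158 and 18312 in KO libraries, against 6553, 6197 and 6530 in WT libraries on the macrophage scale, so that the WT libraries lay close together. Apoe was at 77240 to 126120 in KO and 35580 to 60813 in WT libraries, Lpl at 7605 to 16836 in KO and 3386 to 6230 in WT libraries, and Trem2 at 1110 to 1998 in KO and 814 to 1051 in WT libraries. Itgax, Gpnmb and Lgals3 still overlapped, with log2 changes of -0.67, -0.26 and 0.31. This scaling moved the median of all genes to 0.25, from 0.05 on the deposited scale, a shift that each log2 change on it shares. Lpl had a log2 change of 1.21, Cd36 of 1.09 and Trem2 of 0.59 on it.

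The count depends on which macrophage genes set the scale. Divided by Adgre1 alone, 8 of the 10 genes did not overlap, where 17.8% of all genes did not. Divided by Csf1r or Ptprc, which had log2 changes of -0.92 and -0.99 without passing (limma adjusted p = 0.127 and 0.116), 8 and 4 of the 10 did not overlap, but neither did 63.2% and 61.9% of all genes. limma on the list-scaled values called Spp1 and Lpl among the 10, with 5.25% of all genes called, and its estimated prior degrees of freedom were infinite there, so that a gene's own spread carried no weight in those p-values.

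Ratios of 2 of the genes within a library do not depend on any scaling of that library. Of the 45 pairs of the 10 genes, the KO and WT ratios did not overlap for 25, or 55.6%, where 22.9% of all pairs of tested genes did not. The pairs share genes and are not independent. With 3 libraries against 3, an exact permutation test of 1 ratio cannot go below p = 0.1, so these ratios are given as values. Each pair was written with the gene of higher log2 change on top, so the direction of its ratio was fixed by that choice. For each of the 9 pairs with Spp1 the KO and WT ratios did not overlap. Nor did they for 8 of the 9 pairs with Itgax, the exception being Gpnmb to Itgax. Pairs with these 2 genes make up most of the 25, carry the changes of Spp1 and Itgax given above and are not further support.

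The ratio of Spp1 to Gpnmb was nearly constant within KO, at 4.75, 4.53 and 4.45 in replicates 1, 2 and 3, against 0.471, 0.886 and 0.773 in WT replicates 1, 2 and 3. Its change was 2.74 on the log2 scale, a 6.67-fold higher ratio in KO. Spp1 to Trem2 was at 12.7, 14.2 and 13.7 in KO libraries, against 2.503, 5.12 and 3.81 in WT libraries. KO replicate 3, the highest in all 3 genes, had ratios within or next to the range of the other KO libraries. Trem2 to Gpnmb was also higher in KO, at 0.373, 0.319 and 0.324 in KO libraries, against 0.188, 0.173 and 0.203 in WT libraries. By contrast, the ratios of Cd36 to Apoe, Fabp5 to Lgals3, Trem2 to Cd9 and Cd9 to Fabp5 overlapped, with log2 changes of 0.01, 0.06, 0.11 and 0.11. Of the lipid genes, Lpl, Cd36 and Apoe had ratios to one another that all overlapped, with log2 changes of at most 0.13. The ratios of Lpl, Cd36 and Apoe to Fabp5, which carries fatty acids, did not overlap, with log2 changes of 0.84, 0.71 and 0.71.

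**Figure D4:**
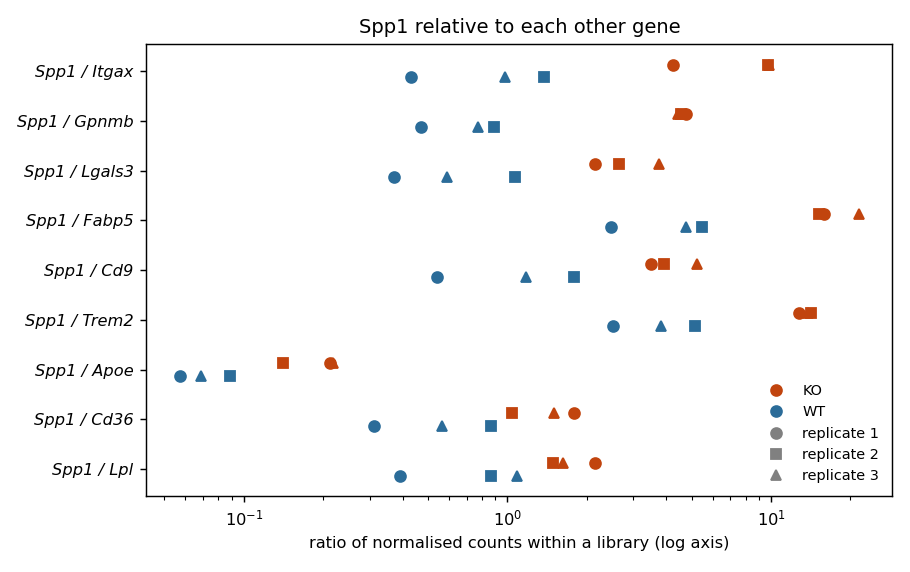
Ratio of Spp1 to each of the other 9 genes within a library (horizontal log axis), with KO libraries above WT libraries in each row and 1 symbol per replicate. In all 9 rows the KO libraries lie to the right of the WT libraries, and for Gpnmb the KO values lie between 4.45 and 4.75.

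The promoter windows of Spp1, which passed the test, and of Trem2, Gpnmb and Itgax, the 3 genes of the 10 with a match to the first motif below, are shown. These 3 were chosen after the matches were seen. They are RefSeq windows of GRCm38.p6, from 250 bases before to 50 after the annotated start, on the plus strand. Capitals mark matches on either strand to 5 motifs: TGANTCA, an AP-1 type site, CACGTG, the core of sites of the MiT factors, GAGGAA, a core of PU.1 type sites, AGGTCA, a half-site of nuclear receptors, and TATAAA. Of the 2 windows of Spp1 the first is shown, and the other held no match. The windows are chr5:104434861-104435160 for Spp1, chr17:48346151-48346450 for Trem2, chr6:49036268-49036567 for Gpnmb and chr7:128129300-128129599 for Itgax.
Spp1: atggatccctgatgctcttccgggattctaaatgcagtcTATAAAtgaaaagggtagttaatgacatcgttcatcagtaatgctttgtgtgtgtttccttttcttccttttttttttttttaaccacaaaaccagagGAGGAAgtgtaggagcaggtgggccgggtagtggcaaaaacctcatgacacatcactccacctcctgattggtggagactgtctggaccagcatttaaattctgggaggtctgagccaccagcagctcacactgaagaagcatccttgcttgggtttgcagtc
Trem2: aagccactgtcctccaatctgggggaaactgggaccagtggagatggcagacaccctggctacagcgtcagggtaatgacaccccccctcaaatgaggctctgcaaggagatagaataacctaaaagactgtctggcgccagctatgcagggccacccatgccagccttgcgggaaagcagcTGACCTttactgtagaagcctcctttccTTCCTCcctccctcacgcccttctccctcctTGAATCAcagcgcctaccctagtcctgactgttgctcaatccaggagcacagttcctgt
Gpnmb: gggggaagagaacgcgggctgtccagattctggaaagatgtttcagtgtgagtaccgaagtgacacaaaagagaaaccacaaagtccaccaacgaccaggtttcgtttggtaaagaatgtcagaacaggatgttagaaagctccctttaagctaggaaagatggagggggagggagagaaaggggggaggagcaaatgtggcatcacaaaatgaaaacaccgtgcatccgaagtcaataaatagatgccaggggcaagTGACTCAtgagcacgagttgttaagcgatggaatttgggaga
Itgax: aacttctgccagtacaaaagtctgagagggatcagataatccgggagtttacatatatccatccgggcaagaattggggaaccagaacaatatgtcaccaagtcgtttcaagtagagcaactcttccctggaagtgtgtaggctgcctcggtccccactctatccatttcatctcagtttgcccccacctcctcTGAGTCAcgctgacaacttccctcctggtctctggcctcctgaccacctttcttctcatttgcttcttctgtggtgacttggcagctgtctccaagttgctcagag
In these 4 windows no 2 matches overlapped. Of the 10 genes 8 had a window, 11 windows in all. TGANTCA was found in 3 of the 11, those of Gpnmb, Itgax and Trem2, and in 7.81% of all 32817 windows of this length. The matched letters were TGACTCA in Gpnmb, TGAGTCA in Itgax and TGAATCA in Trem2. GAGGAA was found in windows of Spp1, Trem2 and Apoe and in 28.3% of all windows, AGGTCA in those of Trem2 and Cd36 and in 16.3%, and TATAAA in those of Spp1 and Apoe and in 13.6%. CACGTG was in none of the windows of these genes and in 7.15% of all windows. A match is a description of the letters and not a binding site.

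The further genes of the program were read from lists written for this comparison, with earlier results of these data known. Their counts beside the shares of all genes are therefore descriptions and not tests. In the list of further scar-associated macrophage genes, 16 of 18 had a log2 change above 0, with a median of 0.46, and limma called none of the 18 (3 had an unadjusted p under 0.05, and edgeR and DESeq2 called none). The members of smallest p were Ctsl, a lysosomal protease, at 10819 normalised counts in KO and 5996 in WT libraries (log2 change 0.87), Dab2, an endocytic adaptor (0.87), and Capg, an actin-capping protein (0.56). In the list of TREM2 signalling, 12 of 13 genes were below 0, with a median of -0.56, against 0.05 for all genes. Of the 13, 9 had an unadjusted p under 0.05, where 18.0% of all genes did. edgeR called 1 and DESeq2 called 5, where they called 1.81% and 9.02% of all genes. Pik3cg, the gamma catalytic subunit of PI3-kinase, fell to 687 ± 120 normalised counts in KO, against 1282 ± 197 in WT libraries (SD, n = 3 each). Its log2 change was -0.90 (SE 0.20, limma adjusted p = 0.0484), and it was the only gene of the list that limma called. Tyrobp, the adaptor of TREM2, had a log2 change of -0.42 beside the 0.39 of Trem2 itself, and neither passed (limma adjusted p = 0.397 and 0.616). Many genes of this list act in most leukocytes.

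The lipid lists moved less evenly. In the list of lipid uptake and lipoprotein receptors 7 of 13 genes were above 0 and limma called none (3 had an unadjusted p under 0.05, edgeR called none and DESeq2 called 2). Fcgr2b, an Fc receptor that sinusoidal endothelium also carries, Marco, a scavenger receptor of macrophages, and Olr1, a receptor for oxidised LDL, had log2 changes of 1.23, -1.63 and 1.12 without passing. In the list of lipid storage, hydrolysis and efflux 12 of 21 tested genes were above 0. Apoc1, an apolipoprotein encoded beside Apoe, rose to 4842 ± 821 in KO, against 2156 ± 622 in WT libraries (log2 change 1.20, SE 0.25, limma adjusted p = 0.0463), and alone passed. Among 10 tested lipoprotein lipase partners and inhibitors 8 were above 0, with a median of 1.30. Beside these lists, the median over hepatocyte markers was 2.35, and their part in these changes was not tested.

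Receptors and partners of the 10 genes were split between both directions. Among 12 osteopontin and galectin-3 receptors 8 were below 0, and Itga4, the alpha chain of the integrin VLA-4, fell to 4447 ± 1995 in KO, against 11811 ± 2999 in WT libraries (log2 change -1.47, SE 0.32, limma adjusted p = 0.0480). Cd44, which encodes another osteopontin receptor, stood at -0.40 on the log2 scale, with a limma adjusted p of 0.408. Among 14 tetraspanins and integrin partners 7 were below 0, and Itgal, the alpha chain of LFA-1, fell to 8359 ± 2711 in KO, against 21193 ± 4705 in WT libraries (log2 change -1.37, SE 0.29, limma adjusted p = 0.0470). Of 21 transcriptional regulators of lipid-handling macrophages 11 were below 0 and limma called none (4 had an unadjusted p under 0.05, edgeR called none and DESeq2 called 3). Pparg, a lipid-sensing nuclear receptor, Maf and Spi1, which encodes PU.1, were those of smallest p, at -1.15, 0.98 and -0.55. These 4 list calls depended on single libraries: Pik3cg, Itga4 and Itgal kept theirs in 1 of the 6 fits without 1 library and Apoc1 in 2, with adjusted p of up to 0.189, and edgeR called Pik3cg alone of them.

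Markers of other cells that make the same genes moved as well. All 17 tested hepatocyte markers were above 0 and 11 rose, among them Tat, Car3, Hpd and Serpina1e, with log2 changes of 2.71, 3.70, 2.78 and 4.49. Without KO replicate 3 no hepatocyte marker was called by limma, and 8 to 14 were without any other library. All 16 endothelial markers were above 0, with a median of 1.37, and 6 rose, among them Bmp2, Emcn, Tie1 and Dnase1l3. limma called no endothelial marker without KO replicate 2, KO replicate 3, WT replicate 1 or WT replicate 3, 13 without KO replicate 1 and 8 without WT replicate 2, and edgeR called Bmp2 alone. In the list of stellate cells and myofibroblasts 14 of 16 genes lay above 0, with a median of 0.71, and Col1a1 alone rose. Col1a1 kept its call in 1 of the 6 fits without 1 library, with a limma adjusted p of up to 0.128, and had 0.0549 with edgeR. Of 11 tested cholangiocyte markers 10 were above 0, with a median of 0.92, and limma called none (5 had an unadjusted p under 0.05, edgeR called none and DESeq2 called 1). Krt8 and Krt18, keratins of simple epithelium and so not markers of cholangiocytes alone, and Krt7 had log2 changes of 1.28, 0.92 and 1.0. No listed marker was at 0 in all 6 libraries.

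The summed cholangiocyte list, which includes Krt8 and Krt18, was at 2051 to 2750 normalised counts in KO and 667 to 2016 in WT libraries. Spp1 was at 13931 to 28598 in KO and 2374 to 7901 in WT libraries. These are counts of different genes, so the size of the sum does not measure how much Spp1 RNA such cells add. The cholangiocyte sum was at 2239, 2051 and 2750 in KO replicates 1, 2 and 3, and at 1301, 667 and 2016 in WT replicates 1, 2 and 3. Its highest KO library was the one with the highest Spp1, and its lowest WT library was the one with the highest WT Spp1. The summed stellate list was at 36605 to 64774 in KO and 21774 to 30828 in WT libraries, and in KO replicate 3 both it and Spp1 were the highest. In WT replicates 1, 2 and 3 the stellate sum was at 30828, 23708 and 21774. Its highest WT library, replicate 1, was the one with the lowest WT Spp1. The part of cholangiocyte and stellate cell RNA in the Spp1 level was not tested.

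Among leukocyte lists, monocyte markers were below 0 for 13 of 14 genes, with a median of -0.62, and Treml4, Cx3cr1 and Itga4 fell, with log2 changes of -1.72, -1.33 and -1.47. limma called none of them without KO replicate 2, KO replicate 3 or WT replicate 2 (Treml4 kept its call in 2 and Cx3cr1 in 3 of the 6 fits without 1 library), and edgeR called Cx3cr1 alone. The summed monocyte list was at 100612 to 211902 in KO and 88231 to 108642 in WT libraries, against the sign of its median. Conventional dendritic cell markers, which bear on Itgax, were below 0 for 7 of 12 genes with a median of -0.22, and limma called none (2 had an unadjusted p under 0.05, edgeR called none and DESeq2 called 1). Their sum was at 5887 to 13401 in KO and 5777 to 7340 in WT libraries. KO replicates 1 and 2 were above every WT library in it, and KO replicate 3 was within the WT range. Zbtb46, Ccr7 and Flt3 had log2 changes of 1.30, 0.89 and -0.97. Kupffer cell markers were above 0 for 8 of 15 genes with a median of 0.08 and no call by limma (3 had an unadjusted p under 0.05, edgeR called none and DESeq2 called 2), with Clec4f, Marco and Id3 at 1.12, -1.63 and 0.89. Platelet markers, which bear on Cd9 and Cd36, were below 0 for 7 of 8 genes and summed to 1202 to 1715 in KO and 1522 to 2730 in WT libraries. Neutrophil markers were below 0 for 11 of 13 genes, and lymphocyte markers above 0 for 9 of 12. Erythroid markers were above 0 for 7 of 7 tested genes, with a median of 3.20, and summed to 268726, 104273 and 30738 in KO replicates 1, 2 and 3, against 13179, 33346 and 2221 in WT replicates 1, 2 and 3. KO replicate 1 stood far above the others, KO replicate 3 was below WT replicate 2, and limma called no gene of the platelet, neutrophil, lymphocyte or erythroid lists. At an unadjusted p under 0.05 these lists held 1, 2, 0 and 6 genes, edgeR called 1, 0, 0 and 0 and DESeq2 called 1, 1, 0 and 0.

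**Figure D5:**
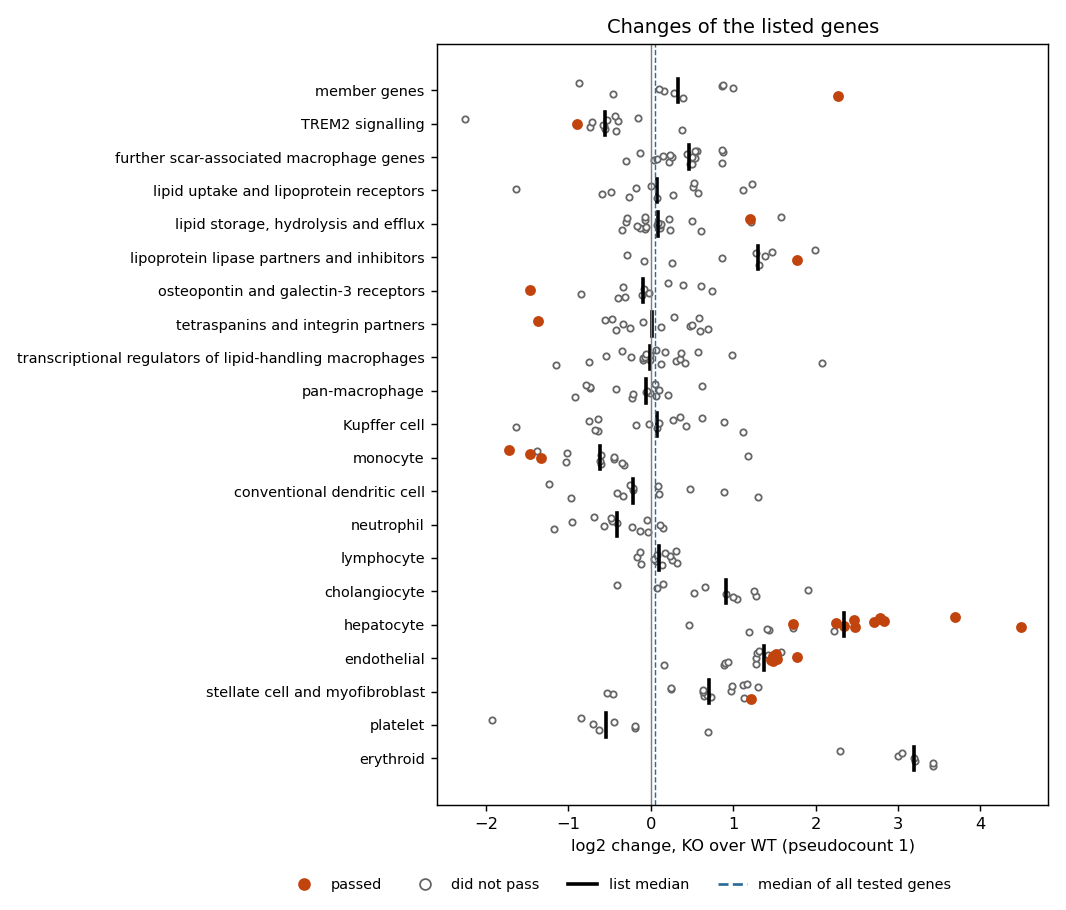
Log2 change, KO over WT, of each tested gene (points, filled where the gene passed) of the 10 member genes and of each list (rows), with list medians as black bars and the median of all genes as a dashed line at 0.05. The TREM2 signalling median lies at -0.56 and that of the further scar-associated genes at 0.46, while the hepatocyte and endothelial medians lie at 2.35 and 1.37.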

How the data were processed

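The 6 libraries, 3 KO and 3 WT by their labels, held RNA of liver cells selected for F4/80. Per the labels, polyadenylated RNA was sequenced with a strand-specific kit. DESeq 1.8.3, HTSeq 0.5.3, STAR 2.4.0k, bcl2fastq 2.17, SAMtools and the build GRCm38.p4 are named without roles, per the submitters' processing notes, and the counting options are not stated there. Per the file headers the authors deposited a signal of normalised counts for 79382 transcripts. In each library 100% of values, divided by the value of 1 read, came out whole within 0.001, so whole reads were recovered.

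Transcripts were matched to GENCODE genes of GRCm38 (78332 matched, 1050 not used). limma 3.58.1 with a trended prior was fitted to log2(value + 1) of 15619 genes kept by filterByExpr, with genotype as the only term, which understates changes of low genes. P-values are two-sided and Benjamini-Hochberg adjusted over all genes, with calls under 0.05. Alternatives used edgeR 4.0.16 and DESeq2 1.42.0 on recovered reads, on which edgeR called 282 genes. Members and lists were chosen with earlier results of these data known. Named genes are the members and, per list, up to 4 called genes or the 3 of smallest p; Tyrobp and Cd44 were added after their values were seen, and not every gene the rule took is given, 1 called list gene among them. A pair of list symbols, Tf and Ahsp, were not found. On simulated counts for KO against WT with 15619 genes, limma called 22%, 72%, 90% and 100% of 50 genes each given log2 changes of 1, 2, 3 and 4, and called 4 unchanged genes.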

Additional observations from a re-analysis of the deposited data

How the results depend on the processing

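Spp1 alone of the 10 genes passed with pseudocounts of 0.5 and 5, DESeq2, no filter, a CPM of at least 1 in 3 libraries and the replicate block. The count of members called was 0 with edgeR, with TMM factors in limma (Spp1 adjusted p = 0.051) and with summed transcripts (0.0606), 2 when scaled to macrophage genes, and 0 to 1 over the fits without 1 library. Over all genes 381 passed, 326 higher and 55 lower; the count was 1409 with DESeq2 (959 higher, 450 lower), 820 scaled to macrophage genes (784 higher, 36 lower), 233 with summed transcripts, and 8 without KO replicate 3 to 810 without KO replicate 1. Without 1 library, log2 changes ranged from -0.0426 to 0.439 for Cd9, -0.19 to 0.49 for Fabp5 and -0.10 to 0.26 for Lgals3, and those of the other 7 genes kept their sign in all 16 alternatives. With the replicate block 539 genes passed, and Spp1 had an adjusted p of 0.0326. The numbers are not shown to pair libraries: deviations of same-numbered KO and WT libraries had correlations of -0.01, 0.09 and -0.14 across genes. Chosen after seeing the data, summed transcripts gave 23 of 45 ratios without overlap, against 25. The cause of these differences was not tested. With 3 libraries a group, calls of doubled levels were few on simulated counts.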
